A study of Homo sapiens with 15 samples.

Results

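The 38 genes described here code for the enzymes that build cholesterol and fatty acids from acetyl-CoA and for the proteins that set their transcription. They were chosen by name from the pathway, with earlier results of these data known, out of 19483 genes that could be named on the array. All 38 had at least 1 probe, and 37 passed the filter on dim probes, which asked that a probe be well above background on every array of at least 1 group. The remaining member, SC5D, a sterol desaturase, was well above background on 1 of 9 control arrays and 3 of 6 CYGB+ arrays and was not tested. ACACB and ELOVL6 passed through the CYGB+ arrays alone. ACACB was above background on 6 of 9 control arrays and 6 of 6 CYGB+ arrays. ELOVL6 counted as above background on 8 of 9 and 6 of 6, because a flagged spot was counted as not above background.

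The study asked what cytoglobin, a haem protein of the globin family, does in PE/CA-PJ41, an established human oral squamous carcinoma cell line. The CYGB+ cells carried a pCMV6-Neo plasmid with the human cytoglobin cDNA behind a viral promoter and were 1 stable clone, picked with a cloning ring under G418 selection, so that clone and transgene cannot be told apart. The NCE (non-cytoglobin-expressing) control was labelled as carrying an empty transfection vector, while the study's methods also call the control the un-transfected parent line. Both were kept for 24 h in RPMI1640 with 10% foetal bovine serum, which contains lipoproteins, and received no drug. Total RNA was taken on 3 occasions from each line. The labels number 3 biological replicates in each line, each run on 3 arrays for NCE and on 2 for CYGB+, giving 15 Agilent 8x60K arrays. Whether the arrays of a biological replicate share 1 RNA extract is not stated, and they were averaged before testing (n = 3 against 3). The labels and methods call the replicates biological without saying that they were separate cultures, so the p-values measure the spread between these samples.

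Cholesterol synthesis runs from acetyl-CoA through mevalonate and the isoprenoids to squalene, which is closed into lanosterol and then trimmed to cholesterol. Fatty acid synthesis carboxylates the same acetyl-CoA and joins it into palmitate, which desaturases and elongases then modify. Transcription of both branches is driven by the sterol regulatory element binding proteins (SREBF1 and SREBF2), which are made as membrane precursors. The escort protein SCAP carries them to the Golgi for cleavage when sterol is scarce, and the INSIG proteins hold SCAP in the endoplasmic reticulum when sterol is plentiful.

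The promoters of the 4 members that passed the test, and that of SREBF2, are shown first because these factors act through short DNA motifs close to gene starts. Each run is RefSeq sequence of build GRCh38.p14, from 250 bases before to 50 bases after an annotated start. The arrays were designed on another build, and only the gene symbol links the probe to the promoter. Capitals mark matches on either strand to the NF-Y box (CCAAT), the E-box (CACGTG) and a sterol regulatory element (TCACNCCAC). ACSS2 has 2 windows, of which the first is printed.
INSIG1 promoter, chr7:155297628-155297927, plus strand: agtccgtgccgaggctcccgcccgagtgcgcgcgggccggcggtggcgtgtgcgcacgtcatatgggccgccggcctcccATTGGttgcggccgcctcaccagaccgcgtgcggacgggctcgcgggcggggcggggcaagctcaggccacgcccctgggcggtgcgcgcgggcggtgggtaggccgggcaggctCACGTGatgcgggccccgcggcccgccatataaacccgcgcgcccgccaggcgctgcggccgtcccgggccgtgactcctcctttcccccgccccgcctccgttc
STARD4 promoter, chr5:111512486-111512785, minus strand: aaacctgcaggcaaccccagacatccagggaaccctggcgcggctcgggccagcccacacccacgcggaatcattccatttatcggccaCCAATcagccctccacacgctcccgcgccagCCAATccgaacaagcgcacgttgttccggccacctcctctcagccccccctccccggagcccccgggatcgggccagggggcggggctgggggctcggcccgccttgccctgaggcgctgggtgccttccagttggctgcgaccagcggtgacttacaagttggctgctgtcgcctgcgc
ACSS2 promoter, chr20:34874739-34875038, plus strand: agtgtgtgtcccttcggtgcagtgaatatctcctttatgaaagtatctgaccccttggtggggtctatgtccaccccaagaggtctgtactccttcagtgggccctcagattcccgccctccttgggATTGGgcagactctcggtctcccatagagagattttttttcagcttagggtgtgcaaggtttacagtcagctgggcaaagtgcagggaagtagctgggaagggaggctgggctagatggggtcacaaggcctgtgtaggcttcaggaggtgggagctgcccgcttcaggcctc
LSS promoter, chr21:46228725-46229024, minus strand: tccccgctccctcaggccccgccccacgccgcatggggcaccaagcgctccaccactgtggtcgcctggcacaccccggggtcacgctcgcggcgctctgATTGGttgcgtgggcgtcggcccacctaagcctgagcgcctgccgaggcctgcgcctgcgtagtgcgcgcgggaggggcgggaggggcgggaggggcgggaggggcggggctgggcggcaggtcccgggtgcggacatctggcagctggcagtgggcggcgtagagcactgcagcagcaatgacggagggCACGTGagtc
SREBF2 promoter, chr22:41832855-41833154, plus strand: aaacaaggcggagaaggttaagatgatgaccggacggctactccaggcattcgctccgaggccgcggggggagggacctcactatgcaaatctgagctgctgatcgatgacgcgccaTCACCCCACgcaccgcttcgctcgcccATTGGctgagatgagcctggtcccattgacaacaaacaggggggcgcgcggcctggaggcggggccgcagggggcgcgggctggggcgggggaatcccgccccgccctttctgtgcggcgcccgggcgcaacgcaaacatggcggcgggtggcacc

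The sterol regulatory element letters were found in 1 of the 5 sequences, SREBF2, 1 time, and in none of the other windows of the members. INSIG1 and LSS each held 1 E-box and 1 NF-Y box, STARD4 held 2 NF-Y boxes, and the printed ACSS2 window held 1 NF-Y box. Over the 46 windows of the 34 members that could be matched, 30 windows (65.2%) held CCAAT, against 34.6% of all 35116 windows. GGGCGG, the GC box bound by Sp proteins, was in 40 of 46 member windows (87.0%) against 45.0% of all windows, and CACGTG in 6 (13.0%) against 7.26%. TCACNCCAC was in 1 of 46 (2.17%) against 1.13%. All were searched on both strands, 1 pair of matches to different motifs shared bases, and windows of 1 gene can share bases. ACAT2, FDFT1, SQLE and FASN had no window here. These matches are letters in a window and no measure of binding.

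**Figure D1:**
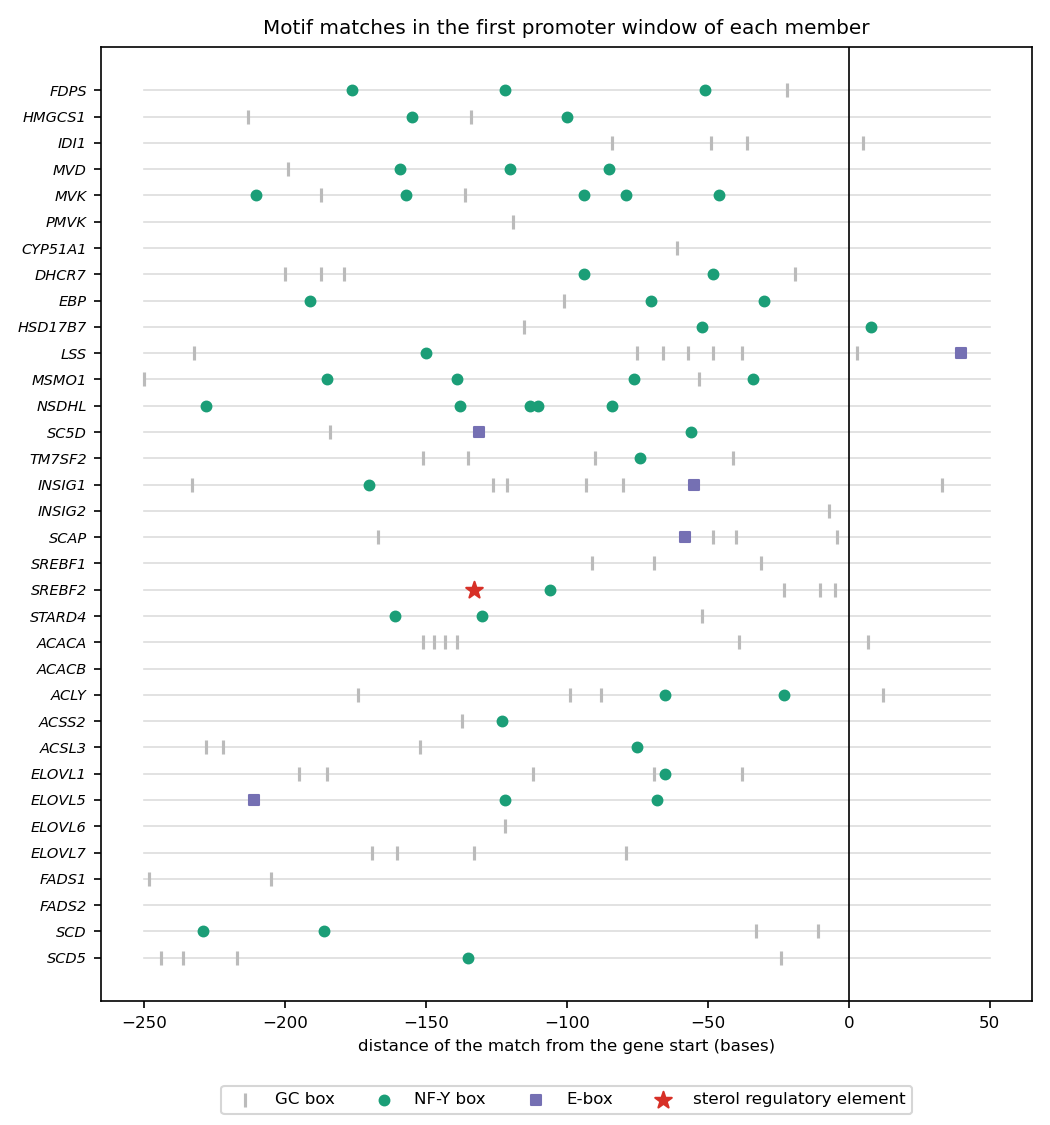
Motif matches in the first promoter window of each member with a match in any window. The x axis is the distance of the match's first base from the annotated gene start in bases, each row is 1 gene, and symbols mark the 4 motifs. NF-Y boxes and GC boxes occur in most rows, E-boxes in few, and the sterol regulatory element form in SREBF2 alone.

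Before the results, 3 facts about the arrays bear on every value. The 8x60K slides hold several arrays each, and 8 of 9 NCE arrays were on the first slide while the last NCE array (replicate 1, array 3) shared the second slide with all 6 CYGB+ arrays. Slide and group are therefore largely the same split, and the values with slide as a term and from slide 2 alone stand beside the results. The slide term was fitted over single arrays, so repeats of a replicate entered separately, with a shared correlation of 0.239. In that fit 1 NCE array parts slide from group. Of the green spots, 53.8 to 61.3% were well above background on each array. The arrays CYGB+ replicate 1 array 1, NCE replicate 3 array 2 and CYGB+ replicate 3 array 2 stood apart, with median correlations to the other arrays of 0.907, 0.96 and 0.963, against at least 0.971 for the remaining 12 arrays. CYGB itself, read by 1 probe (A_33_P3285868), did not separate the groups. It measured 12.99 ± 0.15 in NCE and 12.94 ± 0.53 in CYGB+ (log2 signal, mean ± SD, n = 3), a difference of -0.05 (95% interval -0.67 to 0.56, adjusted p = 0.915). Where this probe lies relative to the transfected cDNA was not given in the sources used here, so the missing rise in CYGB+ cannot check the labels. The study measured cytoglobin in its clones by qPCR and in-cell ELISA and reports high expression in the clone used on the arrays. The array probe was above background on 9 of 9 NCE arrays, although that line is named non-cytoglobin-expressing. Whether this signal is cytoglobin transcript was not tested. CYGB+ and NCE therefore stand below for the samples labelled so, and every direction rests on those labels. All 7 squamous markers (KRT5, KRT14, KRT6A, TP63, DSG3, SFN and PERP) were above background on every array, as were the simple epithelial KRT8, KRT18 and EPCAM. Of 5 fibroblast markers, COL3A1, PDGFRB and LUM were above background on no array, COL1A1 was on 7 of 9 NCE and 6 of 6 CYGB+ arrays, and COL1A2, a collagen chain, was lower in CYGB+ (5.91 ± 0.36 against 8.44 ± 0.09, adjusted p = 0.00106). No other marker of the 22 passed the test without the block, and with it KRT14 (0.66, adjusted p = 0.0363) and EPCAM (-0.57, adjusted p = 0.0464) passed too. The part of these marker differences in the member values was not tested. The defining leukocyte marker PTPRC was above background on 3 of 9 NCE and 2 of 6 CYGB+ arrays, CD3E was on 1 of 9 and 2 of 6, and the macrophage-associated CD14 and CD68 were on every array. Among the endothelial markers VWF was above background on no array, PECAM1 on 1 of 9 NCE and no CYGB+ arrays, and CDH5 on 8 of 9 NCE and 6 of 6 CYGB+ arrays.

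Of the 37 members tested, 2 were higher in the samples labelled CYGB+ (INSIG1 and STARD4) and 2 were lower (ACSS2 and LSS) at an adjusted p under 0.05 in limma. Over all 19763 probes tested, 6.25% were called higher and 5.37% lower, so the members were called about as often as any probe and the counts are not a result about the pathway. For the fit with a replicate block, same-numbered replicates were taken as pairs because they deviated together (correlations 0.24, 0.26 and 0.33). The labels do not state a pairing, and the main fit did not use it. With the replicate as a block 4 members were higher, against 9.14% of all probes. SREBF2 (limma, adjusted p = 0.0418) and ELOVL1 (adjusted p = 0.0472) were added there. The same 2 members were lower under the block, against 8.51% of all probes. With slide as a term no member was called higher (1.47% of all probes were), and ACSS2 and LSS were lower (2.14% of all probes). In that fit 3 members were higher at an unadjusted p under 0.05 (limma), INSIG1 and STARD4 among them. The share of all probes at that looser threshold was not counted there. Without the 3 arrays that stood apart, 5 members were higher (13.0% of all probes), PMVK, ELOVL1 and FADS1 being added, and the same 2 were lower (12.2%). The median difference, CYGB+ minus NCE, was 0.14 on the log2 scale over the members and 0.0 over all probes. With slide as a term it was 0.02, and within slide 2 it was 0.07. The 3 CYGB+ replicates did not overlap the 3 NCE replicates in 12 members, 8 of them above (17.8% of all probes were) and 4 below (17.0% of all probes). Median absolute differences were 0.28 for the members and 0.3 for all probes.

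**Figure D2:**
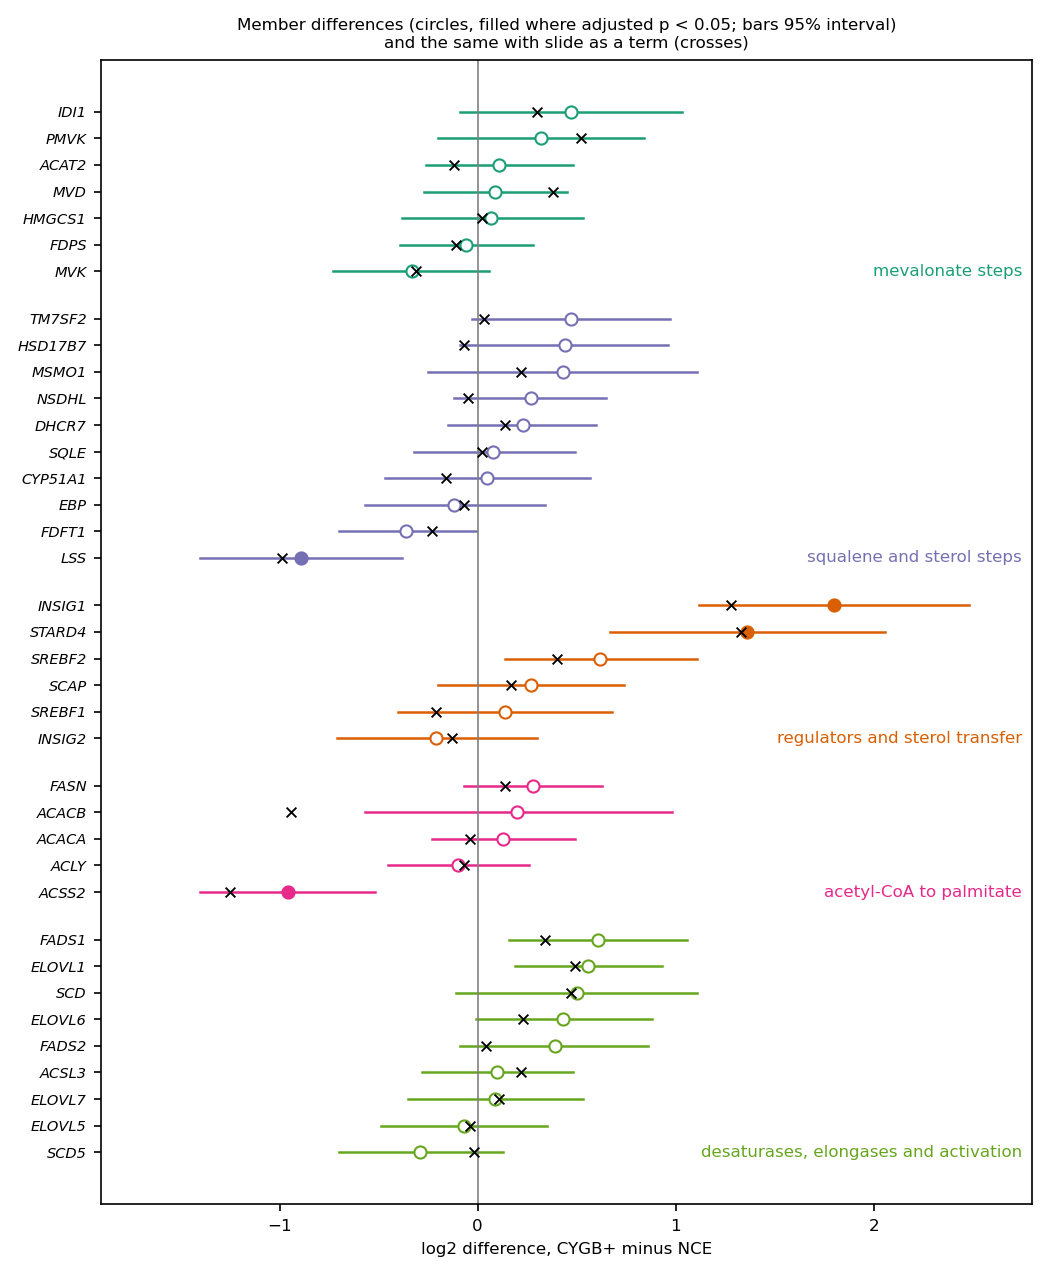
Differences of the 37 tested members by role. The x axis is the log2 difference, CYGB+ minus NCE; circles are the fit over 3 against 3 replicates, filled where the adjusted p was under 0.05, bars are 95% intervals and crosses are the values with slide as a term. INSIG1 and STARD4 lie furthest to the right and ACSS2 and LSS furthest to the left, while most other intervals include 0.

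INSIG1 had the highest difference of the members. INSIG1 is the membrane protein that retains SCAP and that is itself made under SREBP control. Its log2 signal was 7.72, 6.93 and 6.86 in NCE replicates 1 to 3 and 9.45, 8.68 and 8.78 in CYGB+ replicates 1 to 3. All 3 CYGB+ replicates were above all 3 NCE replicates, with replicate 1 the highest of its group on both sides. INSIG1 was 3.49-fold higher in CYGB+ (95% interval 2.18 to 5.60, log2 difference 1.80, SE 0.29, adjusted p = 0.0105), and 0.64% of all probes tested rose by more. On slide 2 alone, the single NCE array read 7.9 and the 6 CYGB+ arrays 8.67 to 9.55. The difference there was 1.07 (adjusted p = 0.377), with slide as a term 1.28 (adjusted p = 0.0516), and without NCE replicate 2 1.68 (adjusted p = 0.0501). Normexp background correction gave 1.09 (adjusted p = 0.0158), and the methods' test, which pools no spread over probes, gave an adjusted p of 0.0835. The 2 arrays of CYGB+ replicate 1 differed by 0.2. Without the 3 arrays that stood apart the INSIG1 difference was 1.76 (limma, adjusted p = 0.00544).

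STARD4, a cytosolic protein that moves cholesterol between membranes, was the other member called higher. Its log2 signal was 7.35, 7.19 and 7.66 in NCE and 9.44, 8.27 and 8.58 in CYGB+. The groups did not overlap, and CYGB+ replicate 1 was the highest. STARD4 was 2.57-fold higher (95% interval 1.59 to 4.17, log2 difference 1.36, SE 0.30, adjusted p = 0.029). CYGB+ replicate 1 read 10.38 on the array that stood apart and 8.51 on its repeat, and without the 3 arrays that stood apart the difference was 1.06 (adjusted p = 0.00165). On slide 2 the NCE array read 7.4 and the CYGB+ arrays 8.22 to 10.38, a difference of 1.36 (adjusted p = 0.347). With slide as a term the difference was 1.33 (adjusted p = 0.315). The call was also lost without CYGB+ replicate 3 (adjusted p = 0.0521) and without NCE replicate 1 (0.0784), 2 (0.111) or 3 (0.0617). It was lost as well under normexp correction (0.84, adjusted p = 0.0936), with no filter on dim probes (0.0886) and in the methods' test (0.133).

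**Figure D3:**
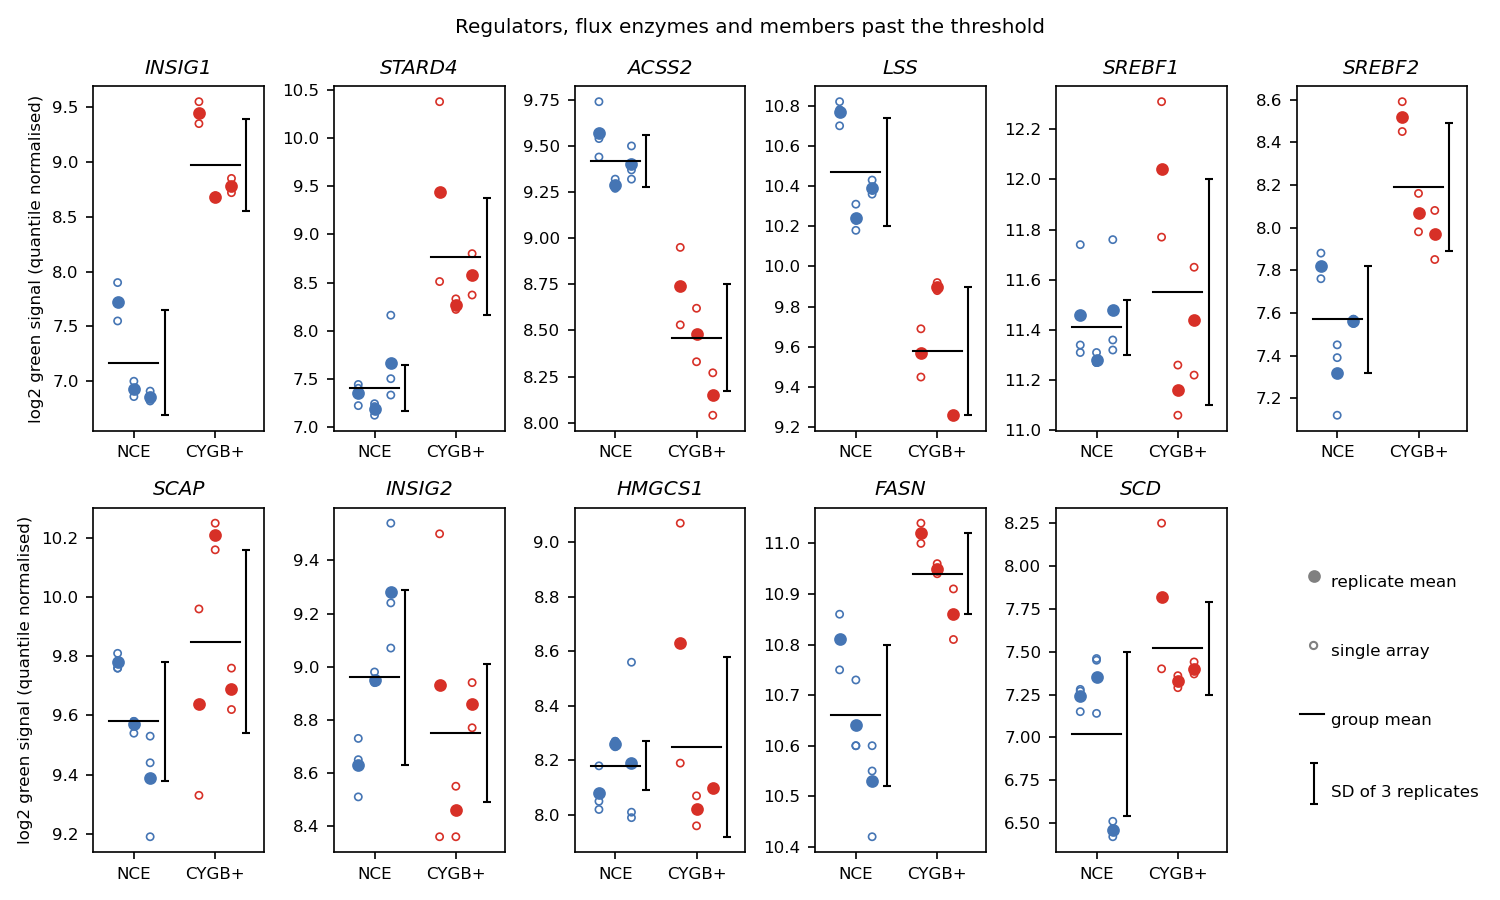
Log2 green signal after quantile normalisation of the 11 members given in full. Filled points are replicates, open points single arrays, lines the group means and bars the SD of 3 replicates; each panel has its own y axis, which does not start at 0. By replicate, CYGB+ lies above NCE without overlap in INSIG1, STARD4, SREBF2 and FASN, below it in ACSS2 and LSS, and overlaps it in the others. The single arrays of SREBF2 and FASN do overlap between groups.

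The transcription factors and their escort moved less. SREBF2, the factor that chiefly drives cholesterol genes, measured 7.82, 7.32 and 7.56 in NCE and 8.52, 8.07 and 7.97 in CYGB+. The groups did not overlap, but the difference of 0.62 (95% interval 0.14 to 1.11) had an adjusted p of 0.0958 without the block. With slide as a term it was 0.40 (adjusted p = 0.564). SREBF1, which chiefly drives fatty acid genes, measured 11.46, 11.28 and 11.48 in NCE and 12.04, 11.16 and 11.44 in CYGB+, a difference of 0.14 (adjusted p = 0.736). Its second probe gave -0.32 (adjusted p = 0.363), so the 2 probes differed in sign. SCAP measured 9.78, 9.57 and 9.39 in NCE and 9.64, 10.21 and 9.69 in CYGB+, a difference of 0.27 (adjusted p = 0.419). INSIG2, the second INSIG protein, measured 8.63, 8.95 and 9.28 in NCE and 8.93, 8.46 and 8.86 in CYGB+. Its difference of -0.21 (95% interval -0.71 to 0.30, adjusted p = 0.57) did not pass, nor did that of its second probe (-0.50, adjusted p = 0.103). Whether INSIG1 and INSIG2 differed in their change was not tested.

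None of the 7 mevalonate genes passed the test, and their differences ran from -0.33 to 0.47 with a median of 0.09. HMGCS1, which makes HMG-CoA, measured 8.08, 8.26 and 8.19 in NCE and 8.63, 8.02 and 8.10 in CYGB+, a difference of 0.07 (95% interval -0.38 to 0.53, adjusted p = 0.84). The high first replicate held 1 array that read 0.88 above its repeat. IDI1, the isomerase that supplies the allylic isoprenoid unit, gave 0.47 (adjusted p = 0.24), and 0.15 without the arrays that stood apart. PMVK, the second kinase of the branch, gave 0.32 (adjusted p = 0.386) with all arrays and 0.47 (adjusted p = 0.0326) without those 3. MVK, mevalonate kinase, gave -0.33 (adjusted p = 0.235). ACAT2, the cytosolic thiolase at the entry (0.11), MVD, mevalonate diphosphate decarboxylase (0.09), and FDPS, farnesyl diphosphate synthase (-0.06), lay near 0.

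Of the 10 squalene and sterol genes tested, LSS was lower and the other 9 did not pass. LSS, lanosterol synthase, closes squalene epoxide into the first sterol. Its log2 signal was 10.77, 10.24 and 10.39 in NCE and 9.57, 9.90 and 9.26 in CYGB+, without overlap. LSS was 1.85-fold lower in CYGB+ (95% interval 1.30 to 2.63, log2 difference -0.89, SE 0.22, adjusted p = 0.04). On slide 2 the NCE array read 10.7 and the CYGB+ arrays 9.26 to 9.92, a difference of -1.12 (adjusted p = 0.297), and with slide as a term the difference was -0.99 (adjusted p = 0.05, just inside the threshold). Leaving out CYGB+ replicate 1 (adjusted p = 0.0687) or 3 (0.0918), or NCE replicate 1 (0.111), 2 (0.0893) or 3 (0.112), ended the call, as did scaling to the 75th percentile (0.0517), no filter (0.0989) and the methods' test (0.129). A second LSS probe, for another transcript record, did not pass the filter.

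The enzymes on either side of LSS did not pass. FDFT1, squalene synthase, gave -0.36 (95% interval -0.70 to -0.01, adjusted p = 0.165), and SQLE, squalene epoxidase, gave 0.08 (adjusted p = 0.792). CYP51A1, the lanosterol demethylase, gave 0.05 (adjusted p = 0.907). MSMO1, a methylsterol oxidase, gave 0.43 (adjusted p = 0.369) and 0.15 without the arrays that stood apart, its CYGB+ replicate 1 arrays being 1.86 apart. TM7SF2, a sterol reductase, gave 0.47 over all arrays and 0.03 with slide as a term, and HSD17B7, a ketosterol reductase, 0.44 and -0.07. HSD17B7 has a closely related pseudogene, and its 3 probes gave 0.44, 0.38 and 0.04. NSDHL, a sterol dehydrogenase, gave 0.27, DHCR7, the last reductase, 0.23, and EBP, a sterol isomerase, -0.12. The untested SC5D was 4.09 ± 0.03 in NCE and 3.91 ± 0.54 in CYGB+.

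In the branch from acetyl-CoA to palmitate, 1 of 5 genes passed. ACSS2 makes acetyl-CoA from free acetate in the cytosol and nucleus. It measured 9.57, 9.29 and 9.40 in NCE and 8.74, 8.48 and 8.15 in CYGB+, so that every CYGB+ replicate lay below every NCE replicate. ACSS2 was 1.95-fold lower (95% interval 1.43 to 2.65, log2 difference -0.96, SE 0.19, adjusted p = 0.0206). On slide 2 the NCE array read 9.74 and the CYGB+ arrays 8.04 to 8.95. The difference there was -1.29, and with slide as a term it was -1.25 (limma, adjusted p = 0.00961). The call stayed in that fit, but there repeat arrays enter separately and 1 NCE array parts slide from group. On slide 2 alone, where NCE was 1 array, the ACSS2 call was lost. It was also lost without CYGB+ replicate 3 (limma, adjusted p = 0.0506) or without NCE replicate 1 (0.0684), 2 (0.0657) or 3 (0.0723). With no filter (0.0561) and in the methods' test (0.0798) it was lost too.

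ACLY, which makes acetyl-CoA from citrate and so feeds the same pool, measured 10.13 ± 0.09 in NCE and 10.03 ± 0.15 in CYGB+, a difference of -0.10 (95% interval -0.45 to 0.26, adjusted p = 0.709). FASN, the synthase that assembles palmitate, measured 10.81, 10.64 and 10.53 in NCE and 11.02, 10.95 and 10.86 in CYGB+. Its groups did not overlap, but the difference of 0.28 (95% interval -0.07 to 0.63) did not pass (adjusted p = 0.257). ACACA, the cytosolic acetyl-CoA carboxylase, gave 0.13 on the brighter probe and 0.51 on the dimmer (adjusted p = 0.619 and 0.202). ACACB, the carboxylase of the mitochondrial surface, was dim at 4.99 ± 0.15 and 5.19 ± 0.73. Its difference was 0.20 over all arrays and -0.94 with slide as a term, and the NCE replicate 1 array on slide 2 read 1.39 above its repeats on slide 1.

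Desaturases, elongases and the activating enzyme ACSL3 held no member past the test, with a median difference of 0.39 over 9 genes. SCD, which puts the first double bond into saturated acyl chains, measured 7.24, 7.35 and 6.46 in NCE and 7.82, 7.33 and 7.40 in CYGB+, with overlap. Its difference was 0.50 (95% interval -0.11 to 1.11, adjusted p = 0.254). The low value was NCE replicate 3. SCD5, the second desaturase of this kind, gave -0.29 on its brightest probe and 0.22 on the other tested probe. FADS1 and FADS2, the desaturases of polyunsaturated chains, gave 0.61 (adjusted p = 0.0834) and 0.39 (adjusted p = 0.257), and neither overlapped between groups. With slide as a term they were 0.34 and 0.04. ELOVL1, an elongase of very long saturated chains, measured 10.90 ± 0.14 in NCE and 11.46 ± 0.15 in CYGB+, a difference of 0.56 (95% interval 0.19 to 0.93, adjusted p = 0.0614 without the block). With slide as a term ELOVL1 was 0.49 (adjusted p = 0.339). ELOVL6, which extends palmitate to stearate, gave 0.43 (limma, adjusted p = 0.185). On 1 NCE array its spot was flagged and left out, so it passed the filter through the CYGB+ arrays alone. ELOVL7 (0.09), ELOVL5 (-0.07) and ACSL3 (0.10) lay near 0.

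**Figure D4:**
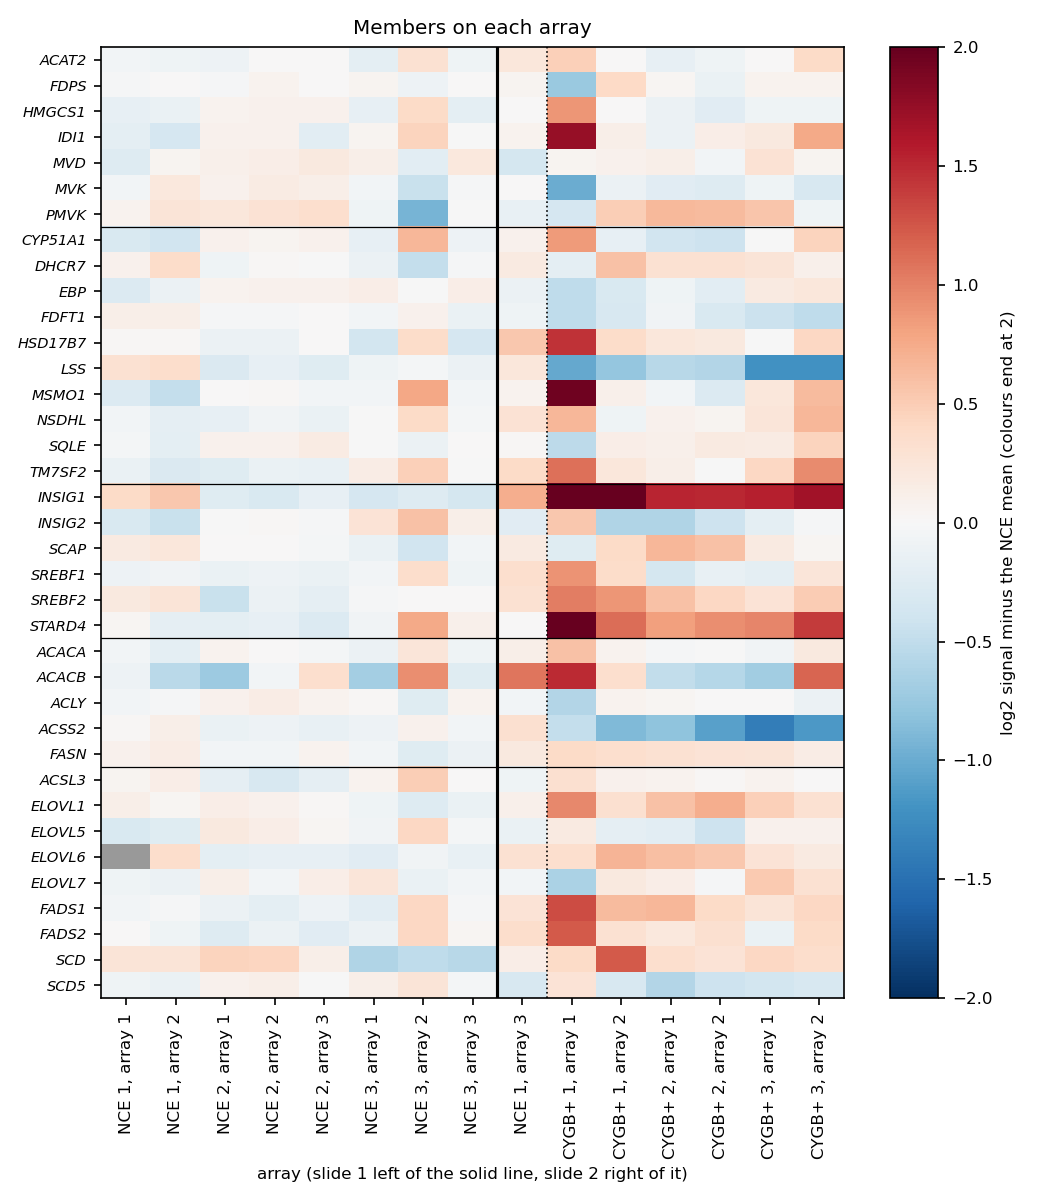
Signal of the 37 tested members on each of the 15 arrays. Colour is the log2 signal minus the NCE mean of that gene, columns are arrays with slide 1 left of the solid line, the dotted line parts the NCE array on slide 2 from the CYGB+ arrays, and grey is a flagged spot. INSIG1 and STARD4 are higher and ACSS2 and LSS lower on all 6 CYGB+ arrays, and CYGB+ replicate 1 array 1 differs from its repeat in many rows.

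Several uncalled members moved with single arrays or with the slide. On CYGB+ replicate 1 array 1, 23 of 37 members read above the repeat array, with a median of 0.36, while 49.6% of all probes read above (median -0.01, quartiles -0.71 and 0.61). Between the 2 slides, the NCE replicate 1 array on slide 2 was above its repeats for 25 of 37 members with a median of 0.09, against 58.9% and 0.07 over all probes. The part of array and slide in the member values was not tested further. Within slide 2, 24 members were above 0, 12 below and ACACA at 0.0 to 2 decimals, with 49.4% of all probes above 0. All 9 desaturase, elongase and activation genes were above 0 there, some barely (SCD5 0.03, SE 0.33). Of the acetyl-CoA to palmitate genes, 1 was above 0 and 3 below. On slide 2 NCE was 1 array, shared by every one of these differences, whose spread was assumed to be that of the CYGB+ replicates.

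**Figure D5:**
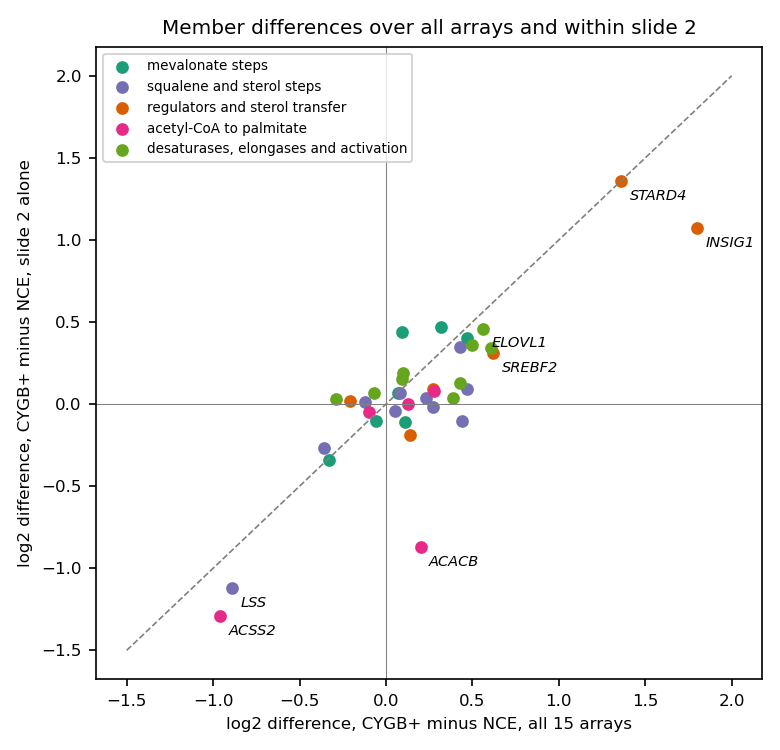
Member differences over all 15 arrays (x axis) against those within slide 2 alone (y axis), both log2, CYGB+ minus NCE, coloured by role; the dashed line marks equal values. The 2 axes share the 6 CYGB+ arrays and 1 NCE array. INSIG1 lies below the line at 1.80 and 1.07, STARD4 on it, ACSS2 and LSS slightly below it, and ACACB changes sign.

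Around these pathways, 44 further lipid genes had probes and 37 were tested. Of these, 3 were higher and 4 lower, against 6.25% and 5.37% of all probes, with a median difference of 0.0. NPC1, which exports cholesterol from lysosomes, measured 9.03, 8.93 and 9.23 in NCE and 10.3, 9.75 and 9.72 in CYGB+ (1.82-fold higher, adjusted p = 0.0339). ABCA1, which exports cholesterol from the cell, measured 7.32, 8.24 and 8.53 in NCE and 6.83, 6.39 and 6.76 in CYGB+ (2.59-fold lower, adjusted p = 0.0307). LIPA, the lysosomal lipase that frees cholesterol from its esters, was 1.54-fold lower (adjusted p = 0.0415). Among 9 genes of SREBP processing and turnover, ERLIN2, a membrane protein of endoplasmic reticulum-associated degradation, was 1.55-fold lower (adjusted p = 0.0443), and SEC23A, a coat protein of vesicles leaving the endoplasmic reticulum, 1.53-fold lower (adjusted p = 0.0458). ACSL1, an acyl-CoA synthetase, was 1.63-fold higher (adjusted p = 0.0266), and MCAT, of mitochondrial fatty acid synthesis, 1.47-fold higher (adjusted p = 0.0415). With the replicate block these 7 still passed. HSD17B12, an enzyme of the elongation cycle (-0.97, limma, adjusted p = 0.0363), and CBR4, of mitochondrial fatty acid synthesis (0.77, adjusted p = 0.0294), passed there too. Both are named after their values were seen. Under the block 9.14% of all probes were called higher and 8.51% lower. None of the 37 passed with slide as a term (limma, 6 at an unadjusted p under 0.05). All RNA came from whole cultures, so fewer cells of a kind and less RNA per cell cannot be told apart.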

How the data were processed

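Green-channel scanner files of 15 Agilent arrays were used, in which the deposited intensity values (processed signal) had been background-subtracted and dye-normalised by the authors with Feature Extraction 10.7.3.1. The deposited log2 values of the series matrix, centred per probe by the authors, served as an alternative, and their scaling between arrays is not settled. GEO's labels say that all samples were Cy3-labelled, whereas the study's methods name Cy5 for the control. The matrix follows the green channel in both groups, so green was used.

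Control and flagged spots were left out, spots of 1 probe were averaged, and a probe counted as above background where at least 0.5 of its spots were. Probes were named through RefSeq accessions (25422 of 42405 matched). Log2 signals were quantile-normalised, the arrays of a replicate averaged, and 19763 probes tested with limma 3.58.1 in R 4.3.3 (lmFit and eBayes, Benjamini-Hochberg over all probes, threshold 0.05). For genes with several probes the brightest tested probe was used. The script was tested on simulated data. Array precision is limited by 3 replicates a group.

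Same-numbered replicates deviated together (correlations 0.24, 0.26 and 0.33), which was taken as pairing in the fit with the replicate block only. The main fit, with its intervals and adjusted p-values, was unpaired. The slide term was fitted over arrays with duplicateCorrelation (0.239). Values per replicate are given for members past the threshold and 1.5-fold, for SREBF1, SREBF2, SCAP, INSIG1, INSIG2, HMGCS1, FASN and SCD, and of the other lipid genes for at most the 4 furthest in each direction. PMVK, IDI1 and others are named because all members are accounted for. The members and lists were chosen with earlier results of these data known. Normexp (offset 50) used the spot median. What the red channel held is not settled: the methods' wording would put control RNA there, and the labels name no red sample.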

Additional observations from a re-analysis of the deposited data

Results flagged for a closer look

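The arrays were scanned in 2 colours, and the red channel is used in no comparison above. Between 55.6 and 61.4% of red spots were well above background on each array, a signal in data outside the main measurement. The labels assign each sample to green alone, the study's methods name the red dye for the control, and no member value was taken from red.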

How the results depend on the processing

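Over 17 settings fixed at the start and 4 chosen after seeing the data (without the arrays that stood apart, together and singly), no called member changed sign, and INSIG1, STARD4, ACSS2 and LSS kept their calls in 16 of 20, 11 of 20, 14 of 21 and 12 of 21. Of 33 members not called, 18 changed sign under at least 1 alternative and 4 (SREBF2, ELOVL1, FADS1 and PMVK) were called under at least 1. The cause was not tested unless stated.

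Probes called in all (higher, lower) were 2297 (1236, 1061). With the replicate block they were 3488 (1806, 1682), with slide as a term 712 (290, 422), on slide 2 alone 96 (58, 38), with the methods' t-test, taken at a false discovery rate of 0.05, 824 (456, 368), on series matrix values 1444 (764, 680) over 15031 probes, with no filter 1196 (633, 563) over 42405 probes, without the arrays that stood apart 4982 (2579, 2403) and without CYGB+ replicate 1 array 1 alone 3981 (2070, 1911). Leaving out a replicate gave 650 to 2124 (365 to 1136, 285 to 988), the lowest without NCE replicate 2.

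Members called higher were 4 with the replicate block, 1 on matrix values (24 members present), 1 with no filter, 5 without the arrays that stood apart, and 0 with slide as a term, on slide 2 and in the methods' t-test (3, 2 and 6 at an unadjusted p under 0.05). Members called lower were 1 with 75th percentile scaling, and 0 with no filter, on slide 2 and in that test (3, 2 and 3 unadjusted). Without 1 replicate, 0 to 2 were higher and 0 to 2 lower, none without NCE replicate 2 (limma, 5 unadjusted). In the main fit 8 of 37 members had an unadjusted p under 0.05 (limma), against 29.0% of all probes. That share was not counted in the other fits, so the unadjusted counts are not a result about the members. The member called higher on matrix values was ELOVL1 (0.46, limma, adjusted p = 0.0457). INSIG1 and STARD4 had no value in the matrix fit. The member median of 0.14 became 0.25 with 75th percentile scaling, where that of all probes was 0.05, and 0.02 with slide as a term. Other lipid genes called were 7, and 9 with the replicate block, 3 with 75th percentile scaling, 2 on matrix values, 1 with no filter, 0 with slide as a term, 0 on slide 2 (1 unadjusted), 3 in the methods' t-test, 15 without the arrays that stood apart and 14 without CYGB+ replicate 1 array 1. Without 1 replicate they were 0 to 8.

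Normexp lowered the INSIG1 difference to 1.09 (adjusted p = 0.0158) and that of STARD4 to 0.84 (adjusted p = 0.0936). Dim probes such as ACACB and SC5D are limited by signal over background.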
